A study of Mus musculus with 28 samples.

Results

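Calb1, Calb2, Pvalb and Ocm encode calbindin-D28k, calretinin, parvalbumin and oncomodulin, the EF-hand proteins that buffer calcium in sensory hair cells (HCs) of the inner ear. The 4 genes were chosen by name, with earlier results of these data known, and they are 4 of the 19421 genes in the deposited table. Calb1, Calb2 and Pvalb reached 10 normalized counts in at least 2 libraries and were tested, whereas Ocm did not reach this level and is described from a separate fit without this filter.

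The 28 RNA-seq libraries come from embryoid bodies (EBs) of 7 inducible mouse embryonic stem cell lines, all made in the parental line A2loxCre and all carrying an mVenus reporter in the inducible cassette. The lines express Atoh1 (iAtoh1), Gfi1 (iGfi1), Pou4f3 (iPou4f3), Gfi1 with Atoh1 (iG+A), Gfi1 with Pou4f3 (iG+P), Pou4f3 with Atoh1 (iP+A) or all 3 transcription factors (iGPA), with a 3xFlag tag on Atoh1 and a 3xMyc tag on Pou4f3. Doxycycline (Dox) was added at 2 µg/ml on day 4 and for 48 h, and mVenus+ cells were then sorted, while the untreated libraries were made from whole unsorted EBs at day 6. Each line has 2 libraries with Dox and 2 without, which the series record gives as separate clones of that line. The difference between Dox and untreated libraries of a line, called the Dox effect here, therefore joins the action of Dox and that of sorting, which cannot be told apart. In these bulk samples, fewer cells that express a gene and less of its RNA per cell cannot be told apart either.

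EF-hand buffers bind calcium ions that enter through channels and so limit how far and how long a calcium signal spreads. In HCs calcium enters through the mechanotransduction channels of the hair bundle and the calcium channels of the ribbon synapse, and the cells hold large amounts of mobile buffer. Calbindin-D28k and calretinin are also abundant in subsets of neurons, parvalbumin is found in interneurons and fast muscle fibres, and oncomodulin is known as a buffer of cochlear outer hair cells.

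Estimated depth was 30.3 to 48.0 M reads per library, and 1 read was worth 0.816 to 1.22 normalized counts, so that the values given here are close to numbers of reads. The transgenes followed the labels. With Dox, libraries whose cassette holds the factor had 12816 to 21242 normalized counts of Atoh1, 8119 to 12487 of Gfi1 and 4694 to 19883 of Pou4f3, against highest values of 32.5, 113 and 101 in the Dox libraries of the other lines. Replicates of a group correlated with Pearson's r of 0.980 to 0.991 across genes. All 4 buffers were rare transcripts, with highest values over the 28 libraries of 81.3 normalized counts for Calb1, 43.3 for Calb2, 14.1 for Pvalb and 9.20 for Ocm. Per kilobase of the longest annotated transcript, these highest levels were 19.3 normalized counts for Calb1, 30.3 for Calb2, 14.4 for Pvalb and 13.98 for Ocm. Among the genes above 0 in a library the median percentile of Calb1 was 1.09 in untreated and 15.4 in Dox libraries, so that even after its increase it stayed in the lower part of the expressed range.

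**Figure D1:**
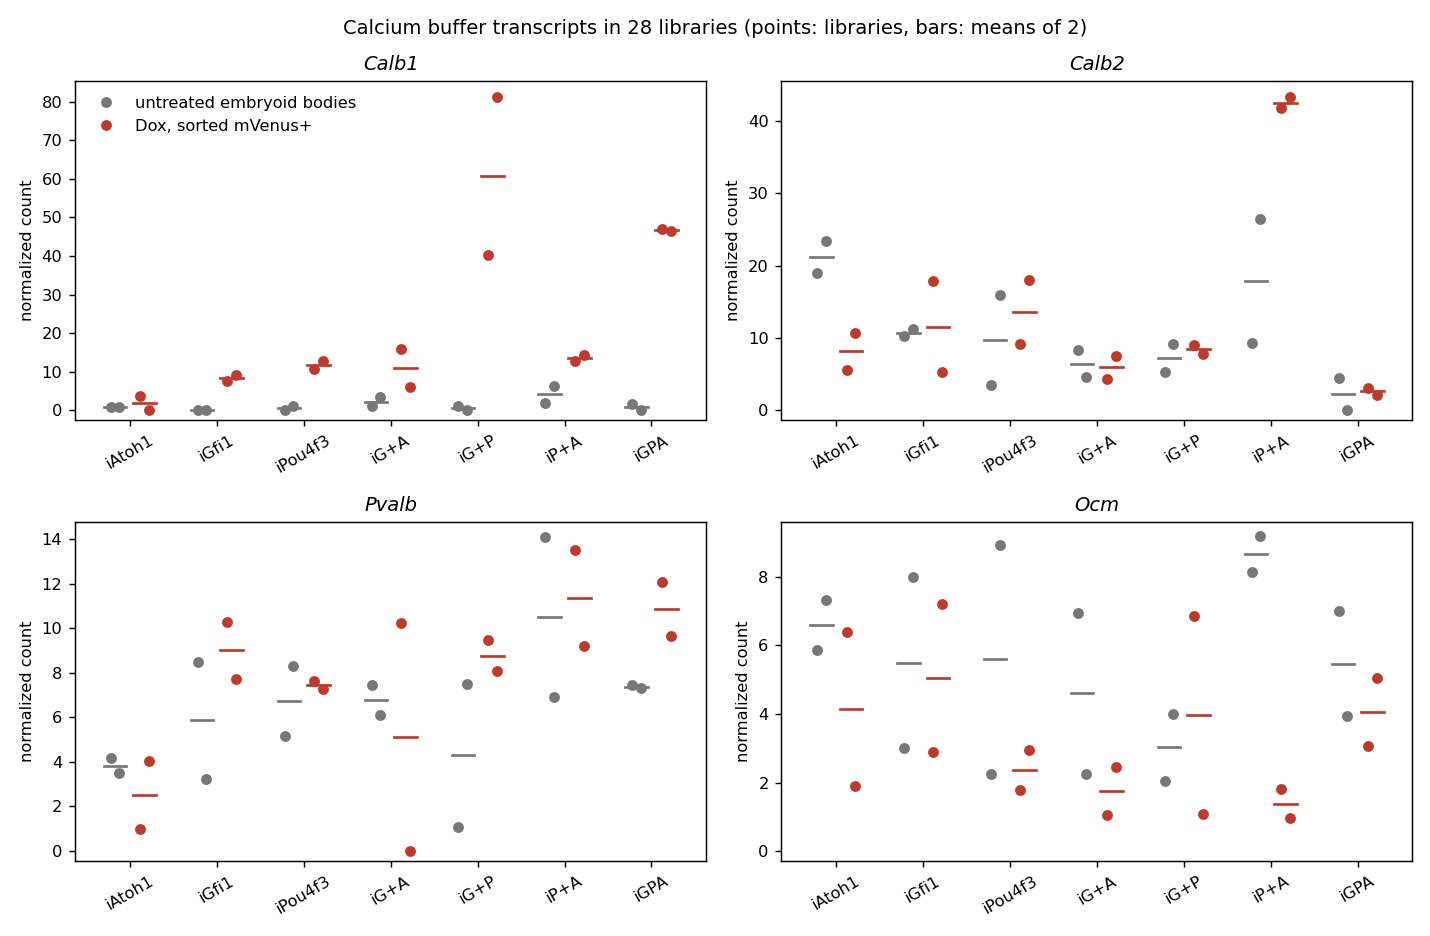
Normalized counts (vertical axis) of Calb1, Calb2, Pvalb and Ocm in each of the 28 libraries, by line (horizontal axis); grey points are untreated EBs, red points are sorted mVenus+ cells after Dox, and bars are means of 2 libraries. Calb1 stands at up to 81.3 in iG+P with Dox and at 6.44 or less in every untreated library, Calb2 is highest in iP+A with Dox, and Pvalb and Ocm stay at 14.1 or less.

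Calb1 rose with Dox in 5 of the 7 lines, most in the 2 lines that combine Gfi1 with Pou4f3. Calbindin-D28k is a fast buffer of early HCs and many neurons. The gene (Entrez 12307) lies on the plus strand of chromosome 4 at 15808411 to 15835211 of NCBIM37, with 11 exons in its longest transcript, and no annotated gene overlaps it. It was nearly silent without Dox, where 5 of 14 libraries were listed at 0, the median was 1.00 normalized count and the highest value was 6.44. Calb1 reached 10 normalized counts in 0 of the 14 untreated and 9 of the 14 Dox libraries. It passed the filter through Dox libraries alone, so that its place among the tested genes is no support for its rise.

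In iG+P, Calb1 stood at 1.02 and 0 normalized counts in the untreated replicates and at 40.2 and 81.3 in the Dox replicates. In iGPA it stood at 1.75 and 0 without Dox and at 47.1 and 46.4 with Dox. The Dox values of these 2 lines overlapped each other and lay above those of every other library.

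The Dox libraries of the next 4 lines were lower, between 6.10 and 16.0 normalized counts. iP+A had 12.7 and 14.4 normalized counts with Dox against 2.03 and 6.44 without, and iPou4f3 had 10.7 and 12.7 against 0 and 1.12. iG+A had 16.0 and 6.10 with Dox against 1.16 and 3.36 without, and iGfi1 had 7.73 and 9.28 with Dox while both of its untreated libraries were listed at 0. Neighbours in this order (iP+A, iPou4f3, iG+A, iGfi1) overlapped, while both Dox libraries of iP+A and of iPou4f3 lay above both of iGfi1. In iAtoh1, Calb1 was 3.66 and 0 with Dox against 0.978 and 0.815 without, and the groups overlapped.

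Both Dox libraries lay above both untreated ones in 6 of the 7 lines, iAtoh1 being the exception. Such a separation was common, as it held for 37.7% of all tested genes in iGPA, 34.2% in iG+P, 31.1% in iP+A, 34.6% in iGfi1, 25.2% in iPou4f3, 32.6% in iG+A and 29.4% in iAtoh1.

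On the log2(normalized count + 1) scale the Dox effect on Calb1 was 5.36 in iG+P (95% interval 3.86 to 6.86, limma adjusted p = 1.22e-05) and 4.85 in iGPA (3.35 to 6.35, limma adjusted p = 2.30e-05). It was 3.24 in iGfi1 (1.74 to 4.74, limma adjusted p = 0.00275) and 3.12 in iPou4f3 (1.62 to 4.62, limma adjusted p = 0.0146). In iG+A it was 1.84 (0.34 to 3.34, limma adjusted p = 0.0467). These 5 effects passed the threshold of an adjusted p under 0.05 with a log2 difference of at least 1.5. The share of all 16837 tested genes that passed it upwards was 5.16% in iG+P, 8.65% in iGPA, 2.15% in iGfi1, 1.47% in iPou4f3 and 7.35% in iG+A. Since untreated levels were at or near 0, the size of these effects depends on the pseudocount and is no bound on a fold change.

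The iP+A and iAtoh1 lines did not pass. In iP+A the Dox effect on Calb1 was 1.61 (0.11 to 3.11, limma adjusted p = 0.108, where 4.7% of genes passed upwards), and in iAtoh1 it was 0.19 (−1.31 to 1.69, limma adjusted p = 0.883, where 2.89% passed upwards). With 1 library left out the iP+A estimate ran from 0.97 to 2.26 and did not pass. Set against all 14 untreated libraries instead of its own 2, the iP+A effect was 2.92 and passed (limma adjusted p = 7.10e-04). The interval of iAtoh1 still holds an effect of 1.5.

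The iG+A call is the least firm of the 5. With the replicate number as a block its adjusted p was 0.0612 (limma). It was lost when any of 14 single libraries was left out: both libraries of iAtoh1 Ctrl, iGfi1 Ctrl, iGfi1 Dox, iPou4f3 Dox, iP+A Dox and iGPA Dox, with the effect at 1.84 and adjusted p of 0.0535 to 0.0559, and replicate 1 of iG+A Ctrl (1.33) or of iG+A Dox (1.21). The iPou4f3 call was lost without Ctrl replicate 1 (2.58), Dox replicate 1 (3.24) or Dox replicate 2 (3.00) of that line. The other 3 calls held without any 1 of the 28 libraries, although the iGfi1 effect was 1.43, under 1.5, with a pseudocount of 5.

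**Figure D2:**
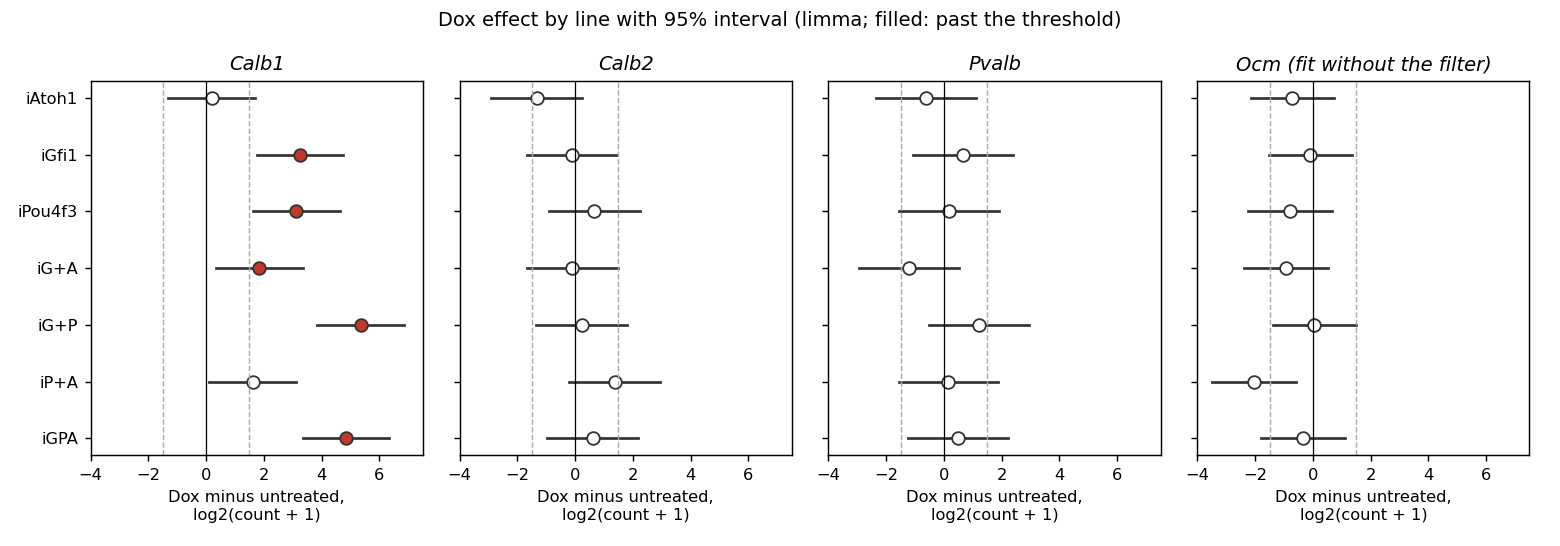
Dox effect (Dox minus untreated, log2(normalized count + 1), horizontal axis) of the 4 genes in each line (vertical axis); points are limma estimates, bars their 95% intervals, filled points passed the threshold and dashed lines mark a difference of 1.5. Calb1 passed in 5 lines with effects of 1.84 to 5.36, Calb2 and Pvalb in none, and Ocm is drawn from the fit without the filter on low counts with no call marked.

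The Dox effect on Calb1 depended on the line (moderated F = 6.58 over the 7 effects, limma adjusted p = 0.00314), as it did for 51.9% of the tested genes. Untreated levels of Calb1 gave F = 2.25 (limma adjusted p = 0.204), where 12.1% of genes had an adjusted p under 0.05. The set of lines holds every combination of the 3 factors, so that 9 pairs of lines differ by 1 added factor. The level of a shared factor could differ too. Mean Pou4f3 after Dox was 5037 normalized counts in iPou4f3, 11873 in iP+A, 14076 in iGPA and 18736.5 in iG+P. Comparisons of iP+A or iG+P with iPou4f3 therefore join the added factor with a higher Pou4f3 level, whose part was not tested.

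Of these 9 differences, that between iGPA and iP+A, which adds Gfi1 to Pou4f3 and Atoh1, passed the threshold for Calb1 (3.24, 95% interval 1.12 to 5.36, limma adjusted p = 0.0326), where 7.6% of all tested genes passed in either direction. This call was lost when 1 of 6 libraries was left out, namely iP+A Ctrl replicate 2 (2.59), iP+A Dox replicate 1 (3.15) or 2 (3.32), iGPA Ctrl replicate 2 (2.51), or iGPA Dox replicate 1 (3.23) or 2 (3.25).

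Addition of Pou4f3 to Gfi1 and Atoh1 (iGPA against iG+A) gave a difference of 3.01 (0.89 to 5.13, limma adjusted p = 0.108), where 2.2% of genes passed in either direction. Addition of Gfi1 to Pou4f3 (iG+P against iPou4f3) gave 2.23 (0.11 to 4.35, limma adjusted p = 0.142, with 7.63% of genes), and addition of Pou4f3 to Gfi1 (iG+P against iGfi1) gave 2.11 (−0.01 to 4.23, limma adjusted p = 0.305, with 1.85% of genes). These 3 differences had the sign of the iGPA and iP+A difference and did not pass.

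Atoh1 added to a single factor gave negative estimates for Calb1 that did not pass. The difference was −1.41 for iG+A against iGfi1 (−3.53 to 0.71, limma adjusted p = 0.321, where 8.54% of genes passed) and −1.51 for iP+A against iPou4f3 (−3.63 to 0.61, limma adjusted p = 0.554, with 1.61% of genes). With 1 library left out these estimates ran from −2.03 to −0.78 and from −2.16 to −0.86. Atoh1 added to both other factors (iGPA against iG+P) gave −0.51 (−2.63 to 1.61, limma adjusted p = 0.794, with 5.9% of genes). The last 2 of the 9 set lines against iAtoh1 and gave 1.65 for iG+A (−0.47 to 3.77, limma adjusted p = 0.2998, where 6.87% of genes passed) and 1.42 for iP+A (−0.70 to 3.54, limma adjusted p = 0.517, with 2.78% of genes). With 1 library left out these last estimates ran from 0.54 to 2.76 and from 0.31 to 2.53. These 5 intervals all hold 0 and reach past a log2 difference of 1.5 in at least 1 direction, so that effects of this size remain possible.

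**Figure D3:**
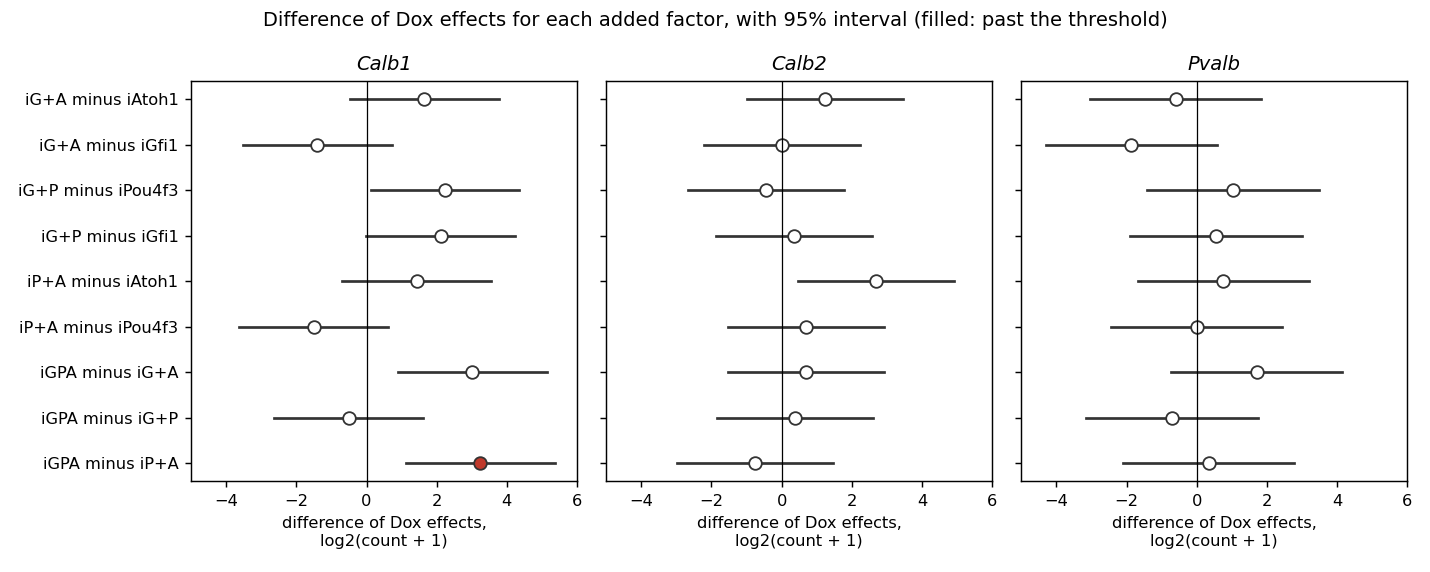
Difference of Dox effects (log2(normalized count + 1), horizontal axis) for Calb1, Calb2 and Pvalb in 9 pairs of lines that differ by 1 added factor (vertical axis); bars are 95% intervals and the filled point passed the threshold. Only iGPA minus iP+A for Calb1 (3.24) is filled.

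Calb2, the gene of calretinin, did not rise or fall past the threshold in any line, but its level with Dox was highest in iP+A. Calretinin is a buffer of vestibular and inner hair cells and of many neurons. The gene (Entrez 12308) lies on the minus strand of chromosome 8 at 112661402 to 112692110 of NCBIM37, with 11 exons and no overlapping gene. Without Dox it had a median of 9.30 normalized counts, a lowest value of 0 in iGPA and a highest of 26.4 in iP+A.

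In iP+A, Calb2 stood at 9.37 and 26.4 normalized counts without Dox and at 41.7 and 43.3 with Dox, the 2 highest values of the 28 libraries. In iAtoh1 it moved the other way, from 19.0 and 23.4 without Dox to 5.62 and 10.6 with Dox. In both lines the groups did not overlap, a separation seen upwards for 31.1% of genes in iP+A and downwards for 30.6% in iAtoh1.

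The remaining 5 lines overlapped between Dox and untreated libraries. With Dox, Calb2 was 9.12 and 18.0 in iPou4f3, 17.8 and 5.30 in iGfi1, 9.04 and 7.79 in iG+P, and 4.36 and 7.495 in iG+A. In iGPA it was 3.15 and 2.07 with Dox and 4.47 and 0 without, the lowest mean of Calb2 among the 7 lines in each condition. The order of Dox levels was iP+A, apart from iPou4f3, then iPou4f3, iGfi1, iG+P, iAtoh1 and iG+A with overlapping neighbours, and iGPA below all of them.

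The Dox effect on Calb2 was 1.37 in iP+A (95% interval −0.21 to 2.94, limma adjusted p = 0.199) and −1.33 in iAtoh1 (−2.90 to 0.24, limma adjusted p = 0.215). With 1 library left out the iP+A estimate ran from 0.67 to 2.07 and did not pass. In the other 5 lines it ran from −0.11 in iGfi1 to 0.67 in iPou4f3. By limma, 0 of the 7 effects passed the threshold, and 0 had an unadjusted p under 0.05, while the share of all genes that passed in either direction was 14% in iGPA, 10.5% in iG+P, 7.29% in iP+A, 12.3% in iG+A, 2.08% in iPou4f3, 4.82% in iGfi1 and 5.4% in iAtoh1. The comparison of iP+A with iAtoh1 (2.70, 0.47 to 4.92, limma adjusted p = 0.172) had the smallest p of the 9 differences for Calb2, of which 0 passed by limma and 1 had an unadjusted p under 0.05. Against all 14 untreated libraries the iP+A effect was 2.26 and passed (limma adjusted p = 0.0207).

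The spread between untreated libraries bears on these values. Untreated Calb2 levels gave F = 3.89 over the 7 lines (limma adjusted p = 0.0688), and F = 5.40 with the replicate number as a block (limma adjusted p = 0.0346). Without iPou4f3 Ctrl replicate 2 F was 4.82 (limma adjusted p = 0.0464), and without iGPA Ctrl replicate 1 it was 6.18 (limma adjusted p = 0.0233). The 2 untreated libraries of iP+A differed more from each other than its 2 Dox libraries did.

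The sorted Dox cells can also be compared directly between lines, which leaves the untreated libraries out of the estimate but not out of the fitted spread. Calb2 was lower in iGPA than in iP+A with Dox by a log2 difference of −3.61 (95% interval −5.18 to −2.04, limma adjusted p = 9.57e-04), which passed the threshold, as 5.19% of genes did downwards. This difference passed without any 1 of the 28 libraries. In the same comparison Calb1 was higher in iGPA by 1.72 (0.22 to 3.22, limma adjusted p = 0.0673) and did not pass, where 5.3% of genes passed upwards. It passed without either iAtoh1 Dox library (1.72 in both cases) and in a fit of the compared groups alone (1.72, limma adjusted p = 0.0111). The difference of Dox effects on Calb2 between iGPA and iP+A was −0.76 (−2.99 to 1.46, limma adjusted p = 0.673) and did not pass. The untreated means of Calb2 in these lines, 2.24 and 17.9 normalized counts, differed in the same direction as the Dox means, 2.61 and 42.5.

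Pvalb and Ocm stayed near the limit of detection in all 7 lines. Pvalb (Entrez 19293) lies on the minus strand of chromosome 15 at 78021544 to 78036830 of NCBIM37 with 4 exons. Ocm (Entrez 18261) lies on the minus strand of chromosome 5 at 144780673 to 144787539 with 5 exons. No annotated gene overlaps either of them.

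Pvalb had a median of 7.11 normalized counts without Dox, with a lowest value of 1.09 and a highest of 14.1, and a median of 8.64 with Dox, with a lowest of 0 and a highest of 13.5. The highest value in both conditions was in iP+A. Dox libraries lay above untreated ones in iG+P (9.46 and 8.07 against 1.09 and 7.51) and iGPA (12.1 and 9.67 against 7.44 and 7.32), a separation that 34.2% and 37.7% of all tested genes showed in these lines. The Dox effect ran from −1.21 in iG+A to 1.21 in iG+P and was 0.49 in iGPA (95% interval −1.24 to 2.23, limma adjusted p = 0.659). With 1 library left out the iG+P estimate ran from 0.19 to 2.22 and did not pass. By limma 0 of 7 effects passed the threshold and 0 had an unadjusted p under 0.05, and the same counts held for the 9 differences. Over all tested genes 2.08% to 14% passed for the effects and 1.61% to 8.54% for the differences.

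In iG+A the Pvalb estimate was set by 1 library. Its Dox replicates stood at 10.3 and 0 normalized counts, against 7.46 and 6.13 without Dox. Without Dox replicate 1 the effect was −2.96 and passed (limma adjusted p = 0.00503), and without Dox replicate 2 it was 0.54. Without iG+A Dox replicate 1 the F over the 7 Dox effects on Pvalb also passed (3.85, limma adjusted p = 0.0279, against 0.96 and 0.537 with all libraries), as did 2 of the 9 differences.

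Ocm ranged from 2.04 to 9.20 normalized counts without Dox (median 6.41) and from 0.962 to 7.22 with Dox (median 2.67). It overlapped between Dox and untreated libraries in 6 of 7 lines. In iP+A it stood at 8.14 and 9.20 without Dox and at 1.81 and 0.962 with Dox, a downward separation seen for 34% of genes in that line. In a fit without the filter on low counts, the Dox effect on Ocm in iP+A was −2.04 (95% interval −3.49 to −0.59, limma adjusted p = 0.0429), a difference of a few reads per library. It passed the threshold in that fit, where 2.36% of all genes passed downwards in iP+A. With a pseudocount of 5 this effect was −1.10, and against all 14 untreated libraries it was −1.37. Both values are smaller in size than the threshold requires, so that the call was lost. The effects in the other lines ran from −0.93 in iG+A to 0.05 in iG+P. With 1 library left out the sign changed in iGfi1 (−0.67 to 0.50), iPou4f3 (−1.59 to 0.023), iG+P (−0.91 to 1.01) and iGPA (−0.69 to 0.0093).

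Correlations among the 4 buffers over the 28 libraries were weak. Pearson's r of log2 values was 0.05 between Calb1 and Calb2, 0.32 between Calb1 and Pvalb and −0.28 between Calb1 and Ocm, and it lay between −0.02 and 0.08 for the other 3 pairs. These are descriptions over libraries that share lines, with counts near 0 for much of the range.

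The genes most like Calb1 over the 28 libraries, by Pearson's r of log2 values, were Cntnap3 (0.92), Gxylt2 (0.91), Map3k12 (0.90), Gsdma (0.90) and Hrk (0.90). For Calb2 they were Uchl1 (0.75), Trim67 (0.75), Usp18 (0.74), Pcolce2 (0.73) and Trim13 (0.72). For Pvalb they were Phactr1 (0.73), Mtus2 (0.66), Mfsd14b (0.65), Rnf11 (0.65) and Klhdc8b (0.64). By Spearman's rho 2 of the 5 for Calb1, 3 for Calb2 and 1 for Pvalb stayed among the first 5, and over the 14 Dox libraries alone 1 stayed for each.

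Other calcium-binding proteins of the EF-hand family also changed. The list holds 32 genes of the table, of which 27 were tested. The number that rose was 10 in iGPA, 6 in iG+A, 3 in iP+A, 4 in iG+P, 2 in iAtoh1 and 1 in each of iPou4f3 and iGfi1, and 1 fell in each of iAtoh1, iG+A and iGPA and 2 in iG+P. Of all tested genes 8.65% rose in iGPA, 7.35% in iG+A, 4.7% in iP+A, 5.16% in iG+P, 2.89% in iAtoh1, 2.15% in iGfi1 and 1.47% in iPou4f3, so that genes in general also rose most often in iGPA. The share of all tested genes that fell was 5.36% in iG+P, 5.31% in iGPA, 4.95% in iG+A, 2.67% in iGfi1, 2.58% in iP+A, 2.52% in iAtoh1 and 0.606% in iPou4f3. These shares are the background of the list counts that follow too. The median log2 difference of the list in iGPA was 0.49 against 0.01 over all genes.

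Cabp2, a sensor that acts on the calcium channels of the hair cell synapse, had the largest rise of this list in iGPA. Its level went from 1.33 ± 0.515 normalized counts (SD, n = 2) without Dox to 289.9 ± 61.7 with Dox in iGPA, a difference of 6.96. It also rose in iG+P (6.03), iP+A (4.29) and iG+A (2.07). Cabp1, a related sensor of neurons and HCs, rose in iGPA (3.87), iP+A (3.65), iPou4f3 (3.36) and iG+P (2.97). Cib2, a part of the mechanotransduction complex, rose in iGPA (2.68), iG+A (1.93) and iG+P (1.66).

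Necab2, a neuronal calcium-binding protein, rose in iG+P (2.09), iGPA (1.94), iG+A (1.69) and iGfi1 (1.51). Hpca, the gene of the neuronal sensor hippocalcin, rose in iP+A (4.84), iAtoh1 (4.09), iGPA (2.33) and iG+A (1.84) and fell in iG+P (−1.57). Hpcal4, of the same sensor family, fell in iG+P (−3.41), iGPA (−2.43), iG+A (−1.66) and iAtoh1 (−1.503).

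Genes that remove or store calcium also moved. All 25 listed pumps, exchangers and store genes were tested, and the number that rose was 7 in iG+A, 6 in iGPA, 6 in iG+P, 2 in each of iGfi1 and iAtoh1, 5 in iP+A and 1 in iPou4f3. Of these genes 1 fell in each of iGfi1, iG+A, iG+P and iGPA. The median log2 difference of the list in iGPA was 0.27 against 0.01 over all genes.

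Atp2b2, the plasma membrane calcium pump of the hair bundle, rose in iGPA from 30.6 ± 15.9 to 628.7 ± 56.5 normalized counts (4.41) and also in iG+P (4.29), iG+A (3.60), iP+A (3.59) and iPou4f3 (2.30). Atp2b3, another plasma membrane pump, rose in iGPA (7.76), the iG+A line (5.39), the iG+P line (4.49), iGfi1 (1.93) and iP+A (2.27). Slc8a2, a sodium-calcium exchanger, rose in iGPA (2.90), iP+A (2.75), iG+P (2.32) and iG+A (1.70). Slc24a4, a potassium-dependent exchanger, fell in iG+P (−3.38), iG+A (−2.64), iGPA (−2.10) and iGfi1 (−2.01).

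Atp2a1, the store pump of fast muscle fibres, rose in iG+A (5.12), iGPA (3.84), iG+P (3.75), iGfi1 (2.87) and iAtoh1 (2.45), that is in all 4 lines whose cassette holds Gfi1 and in iAtoh1. Muscle markers are given beside it. Of the 7 muscle genes 3 rose in iG+A, 3 in iGPA, 1 in each of iG+P, iGfi1 and iAtoh1 and 0 in iPou4f3 and iP+A, while 1 fell in iG+A and 1 in iG+P. The summed level of the list was 512.5 to 1470 normalized counts without Dox and 747 to 1289 with Dox in iG+A and 735 to 1265 and 735 to 742 in iGPA. In iG+P it was 758 to 1138 without and 358 to 438 with Dox, and in iGfi1 2093 to 2306 without and 911 to 1730 with Dox, so that both lines were lower with Dox. In iAtoh1 it was 754 to 1264 without and 832 to 1348 with Dox, and Myod1 was at 0 in both Dox libraries of iG+P. The part of muscle cells in these values was not tested.

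**Figure D4:**
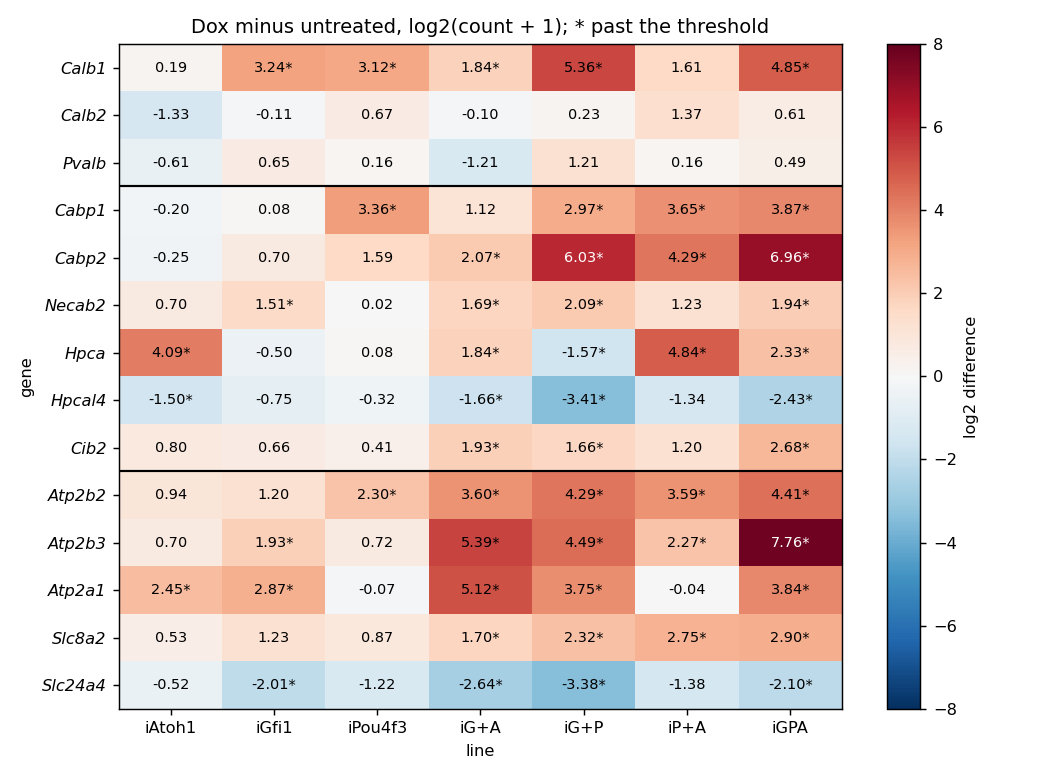
Dox effect (log2(normalized count + 1), numbers and colour scale) of the 3 tested buffers, of 6 other EF-hand genes and of 5 calcium pumps and exchangers (rows) in the 7 lines (columns); asterisks mark effects past the threshold. The added rows are the listed genes that passed in at least 3 lines, with Cabp2 (6.96) and Atp2b3 (7.76) highest in iGPA.

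Marker genes of HCs and neurons are given beside the buffers, to be read against the shares of all tested genes above. Of 14 hair cell genes, 8 rose in iG+P, 7 in iGPA, 6 in iG+A, 5 in iP+A, 4 in iPou4f3, 1 in iGfi1 and 0 in iAtoh1, and 1 fell in iGfi1. The median log2 difference of this list was 1.92 in iG+P and 1.49 in iGPA, the 2 lines with the highest Calb1, and 0.60 in iP+A. The summed level of the list was 29647 to 56827 without and 69420 to 79354 normalized counts with Dox in iG+P, and 14796 to 41189 and 40279 to 45428 in iGPA. Cdh23, a tip link cadherin that passed in no line, made up most of this sum in iG+P, with 38985 ± 19892 normalized counts without and 62264 ± 7095 with Dox (SD, n = 2) and a difference of 0.77 (limma adjusted p = 0.332). In iGfi1, where Calb1 rose, the median of the hair cell list was −0.03. Pcdh15, the partner of Cdh23 in the tip link, was its member that rose there (2.17, limma adjusted p = 2.77e-04), and Chrna9, an acetylcholine receptor subunit, was the member that fell, from a mean of 3.50 normalized counts to 0 in both Dox libraries.

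Of 10 neuronal genes, all rose in iP+A, the line with the highest Calb2, and 8 rose in iGPA, the line with the lowest. In iAtoh1 4 rose, in iG+A 3, in iPou4f3 2, in iG+P 2 and in iGfi1 0, where Syt4 was at 0 in both Dox libraries. The median log2 difference of this list was 4.39 in iGPA, 4.04 in iP+A and 0.32 in iG+P. The summed level of the neuronal list with Dox was 17420 to 23508 normalized counts in iP+A, 7804 to 7814 in iGPA and 1774 to 2143 in iG+P, against 632 to 1046, 432 to 632 and 757 to 789 without Dox. The part of neuronal cells in the Calb1 and Calb2 values was not tested.

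Further lists describe cells of whole EBs. Of 6 mesothelial genes, 5 fell in iGPA, 4 in iG+A, 2 in iG+P, 2 in iAtoh1, 1 in iP+A and 0 in iGfi1 and iPou4f3, and Msln rose in iGPA (8.30), iG+A (5.02), iG+P (2.43) and iGfi1 (2.06). Of 6 visceral endoderm genes, between 1 and 3 fell in each line and 0 rose. Their part in the buffers' values was not tested.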

How the data were processed

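Messenger RNA libraries were made from sorted cells or whole EBs and read on an Illumina HiSeq. The authors removed adapters (cutadapt), assigned reads by Kallisto pseudo-alignment to the UCSC knownGene transcriptome (mm9), and obtained gene values through tximport and DESeq2 normalization (versions not given in the sources used here). The deposited values are log2(normalized count + 1), with 1 column for each of 28 libraries. Whole reads could not be recovered (72.4% to 79.4% of low values within 0.05 of a whole multiple), so no count test was run. The estimates of depth come from these multiples.

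Entrez identifiers were matched to symbols of RefSeq genes (19314 of 19421), and positions are those of GENCODE M1 on NCBIM37. The 16837 genes that reached 10 normalized counts in 2 or more libraries were fitted in limma 3.58.1 (R 4.3.3) with 14 groups, 14 residual degrees of freedom, a variance trend and Benjamini-Hochberg adjustment over all tested genes within each contrast, after a test on simulated data. Each test sets an effect against a moderated spread per gene, pooled over the differences between the 2 libraries of each of the 14 groups. These 2 libraries are given as separate clones of a line.

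The members and gene lists were chosen with earlier results of these data known, and counts are therefore not adjusted over a list. The genes named are the 4 buffers, list genes past the threshold in at least 3 lines, the largest changes of a list in iGPA, and the 5 genes most like each buffer whose group mean reached 10. Marker genes are also named where they stand for a list, make up most of its sum or were at 0 in both Dox libraries of a line, and these were chosen after their values were seen. The result of 1 marker list is not reported here. The direct comparison of iGPA with iP+A after Dox and the use of all 14 untreated libraries as 1 control were added after the data were seen.

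The main fit has no replicate block, and the block was an alternative. It is not stated whether equal replicate numbers of a line mark the same clone. They were treated as pairs there because deviations of same-numbered libraries correlated at 0.24, 0.13, 0.23, 0.16, 0.10, 0.25 and 0.15 in iAtoh1, iGfi1, iPou4f3, iG+A, iG+P, iP+A and iGPA, all above 0.1. Alternatives were pseudocounts of 0.5 and 5, no filter or one of 50, quantile normalization, the replicate block, only the groups compared, no variance trend, a log2 difference of 1, and each library left out.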

Additional observations from a re-analysis of the deposited data

Results flagged for a closer look

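The Dox effect on Calb1 differed between lines in tests of the difference itself. It was larger in iGPA than in iP+A by 3.24 (limma adjusted p = 0.0326), with 47.1 and 46.4 normalized counts against 12.7 and 14.4 with Dox and with both iGPA Dox libraries above all 4 libraries of iP+A. This call was lost with a pseudocount of 0.5 (limma adjusted p = 0.0568), with quantile normalization (0.0728) and without any 1 of 6 of the 8 libraries of these 2 lines. Compared directly, the Dox libraries differed by 1.72, which did not pass (limma adjusted p = 0.0673) but passed in a fit of the compared groups alone (0.0111). Over the 7 lines the moderated F was 6.58 (limma adjusted p = 0.00314). The difference between iGPA and iP+A joins higher Dox levels in iGPA with untreated levels that were lower in iGPA (1.75 and 0) than in iP+A (2.03 and 6.44).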

How the results depend on the processing

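The Calb1 calls in iG+P and iGPA passed under every alternative that kept the gene. F over its 7 Dox effects passed with pseudocounts of 0.5 and 5, no filter, quantile normalization, the replicate block, no variance trend and each library left out, the alternatives in which it was run. A filter of 50 normalized counts removed Calb1, Calb2 and Pvalb and gave no value. The number of lines in which Calb1 passed was 3 with a pseudocount of 5 and 3 with only the groups compared, and 3 to 5 with 1 library left out. With a pseudocount of 5 the Calb1 effect was 1.43 in iGfi1 and 1.09 in iG+A, both under 1.5, and with a pseudocount of 0.5 it was 2.04 in iG+A (limma adjusted p = 0.0885). With only the groups compared it was 3.12 in iPou4f3 (limma adjusted p = 0.0819) and 1.84 in iG+A (0.127). With the replicate block it was 1.84 in iG+A (limma adjusted p = 0.0612), and F over untreated Calb2 was 5.40. The block changed no other call of Calb1, Calb2 and Pvalb, and it was not run for Ocm. The iGPA and iP+A difference for Calb1 was 3.74 with a pseudocount of 0.5 and 2.75 with quantile normalization, and passed in neither. With a pseudocount of 5, the Calb1 differences of iG+P from iPou4f3 (1.92) and iGfi1 (2.08) and of iGPA from iG+A (2.07) passed as well. The Ocm effect in iP+A ran from −2.32 with a pseudocount of 0.5 to −1.10 with one of 5. Against all 14 untreated libraries it was −1.37, and this value and that of −1.10 are under 1.5 in size. Counts of EF-hand and pump genes higher in iGPA stayed within 1.5 times their values. Hpcal4 passed in 2 lines with a pseudocount of 5 or only the groups compared and in 0 with the filter of 50, which removed it, and Hpca in 3 lines with a pseudocount of 5 or all 14 untreated libraries, against 4 and 5 lines. Leaving out 1 library moved Calb1 over 2.58 to 3.66 in iPou4f3, 1.21 to 2.47 in iG+A, 2.51 to 3.97 for the iGPA and iP+A difference, and untreated Calb2 F over 2.08 to 6.18 and Pvalb F over 0.71 to 3.85. Signs changed only for effects that had not passed: against all 14 untreated libraries Calb2 was 0.26 in iGfi1 and −1.35 in iGPA. With 1 library left out Calb1 ran from −0.92 to 1.30 in iAtoh1 and from −1.24 to 0.22 for iGPA against iG+P, Calb2 from −0.90 to 0.68 in iGfi1, −0.29 to 1.64 in iPou4f3, −0.47 to 0.27 in iG+A, −0.12 to 0.59 in iG+P and −0.62 to 1.83 in iGPA, and Pvalb from −1.28 to 0.069 in iAtoh1, −0.14 to 0.46 in iPou4f3, −2.96 to 0.54 in iG+A and −0.31 to 0.62 in iP+A. The causes were not tested. Values of a few reads per library limit Pvalb and Ocm throughout.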
